A study of Mus musculus with 6 samples.

Results

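The Hox genes encode the homeodomain transcription factors that mark position along the body axis, and their probes were read here in 6 mouse mammary tumours. Members were all probes whose annotated symbol was Hoxa, Hoxb, Hoxc or Hoxd followed by a number from 1 to 13, which gave 57 of the 45281 probes and 38 of the 19057 named genes on the array. The members were chosen by symbol and by no measured value, but the family itself was picked with the difference between the 2 groups already known, so that difference is given as a description.

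All tumours came from 12-week-old female mice of the pure FVB strain that carried the PyMT transgene, polyomavirus middle T antigen under the mouse mammary tumour virus promoter, which is active in mammary epithelium. The 3 PyMT/ETP (PyMT/C5) tumours also carried a transgene for endotrophin, the carboxy-terminal C5 fragment of the collagen VI alpha 3 chain, and the 3 PyMT control tumours did not. Total RNA of whole tumour tissue was hybridised to Illumina bead arrays, and each array is counted here as 1 tumour. The labels used here name neither the mammary gland of each tumour nor the promoter of the endotrophin transgene, nor do they say that each array was a separate mouse, so the spread behind each p-value may be technical.

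Mouse Hox genes lie in 4 clusters, and within a cluster the order of the genes follows the order in which they are used from head to tail of the embryo. Low paralogue numbers act in the hindbrain and neck, central ones in the thorax and high ones in the lumbar, tail and distal limb regions. Adult stroma and skin keep part of this code. In the mouse mammary gland the paralogue 9 genes act together in pregnancy-dependent growth, and Hoxc6 and Hoxc8 are used where mammary rudiments form. Hox proteins bind DNA with Pbx and Meis cofactors, Polycomb complexes keep the clusters silent, and retinoic acid and MLL complexes activate them.

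Promoters are shown for 3 neighbours in the Hoxa cluster, because Hoxa5 and Hoxa7 had the widest spread between tumours of all tested members while Hoxa6, which lies between them, was at background, and for Hoxb4, a wide-spread member of the Hoxb cluster. They are RefSeq sequences of build GRCm38.p6, written 5′ to 3′ as windows of 300 bases that end just inside the transcript: Hoxa5 at chr6:52204538-52204837, Hoxa6 at chr6:52208623-52208922 and Hoxa7 at chr6:52218524-52218823 on the minus strand, and Hoxb4 at chr11:96318017-96318316 on the plus strand. Capitals mark matches to any of 4 motifs on either strand.
Hoxa5: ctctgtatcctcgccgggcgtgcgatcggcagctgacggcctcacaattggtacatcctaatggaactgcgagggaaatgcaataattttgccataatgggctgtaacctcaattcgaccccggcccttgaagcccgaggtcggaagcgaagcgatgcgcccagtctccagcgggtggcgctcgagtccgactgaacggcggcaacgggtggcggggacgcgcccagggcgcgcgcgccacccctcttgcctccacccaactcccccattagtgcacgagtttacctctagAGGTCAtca
Hoxa6: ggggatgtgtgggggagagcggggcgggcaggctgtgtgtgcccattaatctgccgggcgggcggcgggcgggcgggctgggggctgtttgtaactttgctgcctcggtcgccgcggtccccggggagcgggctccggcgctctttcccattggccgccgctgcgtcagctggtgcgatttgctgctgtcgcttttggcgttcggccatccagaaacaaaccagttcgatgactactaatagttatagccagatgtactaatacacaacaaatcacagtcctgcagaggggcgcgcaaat
Hoxa7: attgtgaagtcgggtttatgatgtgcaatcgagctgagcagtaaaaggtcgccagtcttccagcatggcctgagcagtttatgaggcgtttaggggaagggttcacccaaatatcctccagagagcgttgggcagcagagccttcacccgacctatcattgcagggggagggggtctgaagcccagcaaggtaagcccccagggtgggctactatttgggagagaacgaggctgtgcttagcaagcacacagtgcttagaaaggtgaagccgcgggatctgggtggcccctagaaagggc
Hoxb4: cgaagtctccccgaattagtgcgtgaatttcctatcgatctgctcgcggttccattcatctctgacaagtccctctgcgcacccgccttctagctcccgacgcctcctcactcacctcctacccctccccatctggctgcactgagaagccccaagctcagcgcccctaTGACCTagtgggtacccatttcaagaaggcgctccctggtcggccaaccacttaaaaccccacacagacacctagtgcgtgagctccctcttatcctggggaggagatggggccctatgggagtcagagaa
The motifs were TGATNNAT (Hox with Pbx), TGACAG (Meis), AGGTCA (the half-site of nuclear receptors such as the retinoic acid receptors) and TTTATNG (Cdx), and no 2 matches overlapped in the promoters shown. Hoxa5 and Hoxb4 each held 1 AGGTCA match, and no match was in the Hoxa6 or Hoxa7 window. AGGTCA was in 7 of 24 Hox promoters and in 16.3% of all 32851 promoters of the same length, TGATNNAT in 4 and in 8.85%, TGACAG in 2 and in 19.2%, and TTTATNG in 2 and in 10.9%. A match is a run of letters and not a measured binding site. CpG dinucleotides numbered 29 in the Hoxa5 window, 26 in Hoxa6, 9 in Hoxa7 and 14 in Hoxb4. The median was 14.5 over the Hox promoters, which came from 22 genes, and 7 over all promoters.

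Levels are deposited intensities on a linear scale on which background still lies at 86.1, and 94.0 is the limit that 5% of background values would exceed. A probe entered the test when 3 or more of its 6 values exceeded this limit. This kept 25 of 57 Hox probes, against 24893 of all 45281 probes (55%). It kept 21 of 38 Hox genes (55.3%), against 12864 of all 19057 named genes, so both Hox shares were the lower. The best probe was above the limit on all 6 arrays for 14 Hox genes and on no array for 11. By cluster, 7 of 10 Hoxa genes, 5 of 10 Hoxb, 6 of 9 Hoxc and 3 of 9 Hoxd genes were tested. By position, the counts were 4 of 7 anterior genes (paralogues 1 to 3), 11 of 15 central genes (4 to 8) and 6 of 16 posterior genes (9 to 13). The central genes therefore held the highest share of tested members, 73.3%, and the posterior genes the lowest, 37.5%. The tissue label was checked with 12 luminal epithelium genes, all of which were tested and 11 of which were above the limit on every array.

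**Figure D1:**
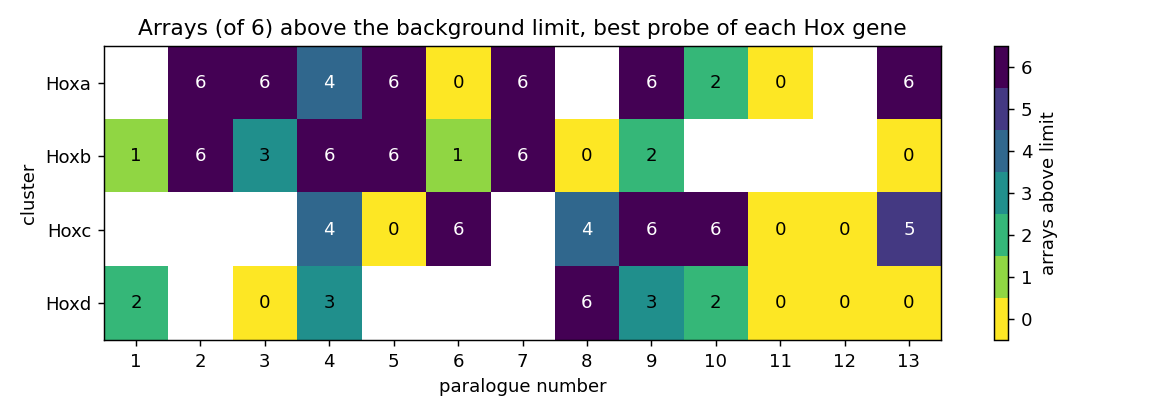
Number of arrays, of 6, on which the best probe of each Hox gene lay above the background limit, by cluster (rows) and paralogue number (columns), where white cells hold no value. Of the 14 cells with 6, 7 are central genes and 1 is a Hoxd gene, and paralogues 11 and 12 are at 0 in every cluster that has a probe.

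Hoxa5 was the member with the largest difference between groups, and it came from 2 of the 3 PyMT/ETP tumours. In mouse Hoxa5 is needed for the trachea, lung and neck and acts in the mammary epithelium. Its intensity was 279, 222 and 116 in PyMT/ETP replicates 1, 2 and 3, against 130.5, 107 and 119.9 in PyMT control replicates 1, 2 and 3. Replicates 1 and 2 of PyMT/ETP lay above every other tumour, whereas replicate 3 lay within the control range, so the groups overlapped. On the log2 scale after background correction Hoxa5 averaged 6.82 ± 1.16 in PyMT/ETP and 5.58 ± 0.37 in PyMT control tumours (SD, n = 3 each), a log2 difference of 1.24 (SE 0.48), or 2.36-fold. In a whole tumour, fewer cells of a type and less RNA per cell cannot be told apart.

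Hoxa7, 2 genes along the same cluster, had the same PyMT/ETP tumours on top. It is a central gene used in thoracic patterning. Its intensity was 217, 164 and 117 in PyMT/ETP replicates 1 to 3, against 112, 99.3 and 117.5 in PyMT control replicates 1 to 3. PyMT/ETP replicate 3 was just under PyMT control replicate 3, and PyMT control replicate 2 was the lowest tumour for both genes. The log2 level was 6.43 ± 0.83 in PyMT/ETP and 5.28 ± 0.36 in PyMT control tumours (SD, n = 3 each), a log2 difference of 1.15 (SE 0.37), or 2.23-fold. For Hoxa5 the difference of 1.24 was close to the PyMT/ETP SD of 1.16. For Hoxa7 the difference exceeded the PyMT/ETP SD, 1.15 against 0.83. Hoxa6, between them, was at 91.6, 85.1 and 87.1 in PyMT/ETP tumours, against 93.7, 87.6 and 90.3 in PyMT control tumours, below the limit on all 6 arrays. Nothing can be said of a change in Hoxa6 at that signal.

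Neither gene passed the test across the array. With limma and Benjamini-Hochberg adjustment over 24893 probes, 0 Hox probes and 0 of all probes (0%) had an adjusted p under 0.05, and the lowest adjusted p was 0.9997 for Hox probes as for all. At an unadjusted p under 0.05 there were 5 Hox probes of 25, all higher in PyMT/ETP, where the share over all probes was 4.69% (2.51% higher and 2.18% lower). They were those of Hoxa5, Hoxa7, Hoxb3, Hoxc8 and Hoxd4, of which Hoxb3 and Hoxd4 entered the test through their PyMT/ETP arrays alone. Hoxc8 met the filter on its 3 PyMT/ETP arrays, with 1 control array also above the limit. With the array of PyMT control replicate 3 left out, the count of Hox probes under 0.05 was 1. That count was 3 when PyMT/ETP replicate 1 or 2 or the array of PyMT control replicate 2 was left out. It was 3 with no background correction and 2 with an offset of 50 in place of 16. Without PyMT/ETP replicate 3 the log2 difference was 1.90 for Hoxa5 and 1.60 for Hoxa7, and without PyMT/ETP replicate 1 it was 0.80 and 0.77. Hoxa5 was 0.70 and Hoxa7 0.55 with no background correction.

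**Figure D2:**
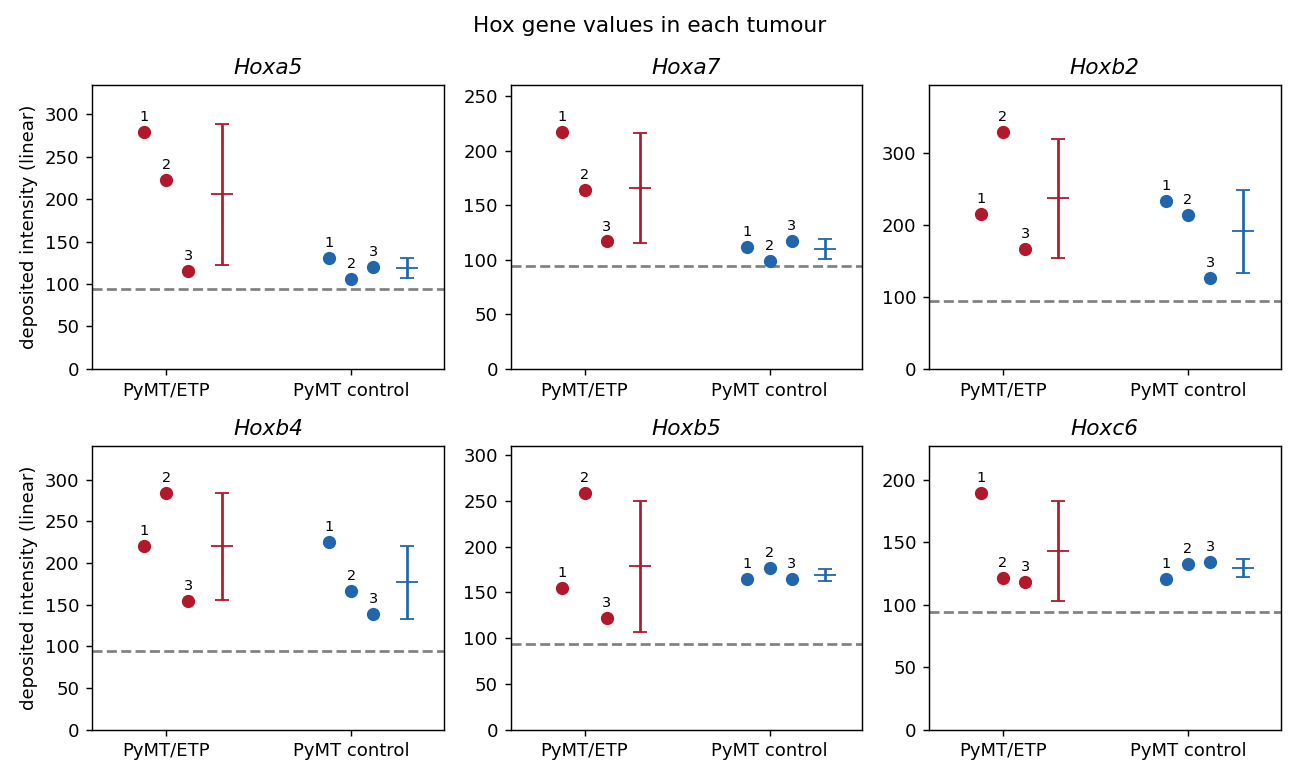
Deposited intensity (linear axis from 0) of 6 Hox genes in each PyMT/ETP (red) and PyMT control (blue) tumour, numbered by replicate, with the mean and SD of each group beside the points and the background limit as a dashed line. Hoxa5 and Hoxa7 are highest in PyMT/ETP replicates 1 and 2, and in all 6 panels the groups overlap.

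The other tested Hoxa genes were close to background, with log2 differences from -0.17 to 0.39. Hoxa2, which patterns the hindbrain and the face, was at 121, 122 and 97.6 in PyMT/ETP tumours, against 97.6, 106 and 129 in PyMT control tumours. Hoxa3, a gene needed for the thymus, was at 97.3, 95.1 and 113 against 97.8, 100.4 and 101. Neither separated the groups, with log2 differences of 0.11 and 0.06. Hoxa4 was at 101, 94.5 and 104 in PyMT/ETP tumours, all above the limit, against 86.7, 100.3 and 84.6 in PyMT control tumours, of which 1 was (log2 difference 0.39, SE 0.21). Hoxa9, a paralogue 9 gene also known in blood progenitors, was at 106, 112 and 105 in PyMT/ETP tumours, against 97.2, 103 and 118 in PyMT control tumours. Its log2 difference was 0.10, and its other 2 probes were below the limit on all arrays. Hoxa13, which patterns digits and the genital tract, was at 115, 111 and 111 in PyMT/ETP tumours, against 106, 123 and 125 in PyMT control tumours. It gave a log2 difference of -0.17, a second tested probe gave 0.13, and another probe was below the limit on all arrays, so the probes of Hoxa13 did not share a sign.

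In the Hoxb cluster, Hoxb2, Hoxb3, Hoxb4 and Hoxb5 were each highest in PyMT/ETP replicate 2. Hoxb2, a hindbrain gene, was at 215, 329 and 167 in PyMT/ETP replicates 1 to 3, against 234, 214 and 126 in PyMT control replicates 1 to 3. Hoxb4, also known for its action in blood stem cells, was at 221, 284 and 155 in PyMT/ETP tumours, against 225, 167 and 139 in PyMT control tumours. For both genes PyMT control replicate 3 was the lowest tumour and PyMT/ETP replicate 3 the next lowest, and the groups overlapped. The log2 difference was 0.49 (SE 0.44) for Hoxb2 and 0.47 (SE 0.37) for Hoxb4. Without PyMT control replicate 3 that of Hoxb2 was 0.0013, and without PyMT/ETP replicate 2 that of Hoxb4 was 0.16.

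Hoxb5, a gene of the shoulder level and of vessel precursors, was at 155, 259 and 122 in PyMT/ETP tumours, against 165, 177 and 165 in PyMT control tumours. The control tumours lay close together, inside a PyMT/ETP range set by replicates 2 and 3, and the log2 difference was -0.07 (SE 0.38). It was -0.57 without PyMT/ETP replicate 2 and 0.36 without PyMT/ETP replicate 3. Hoxb7, a central gene studied in human breast cancer, was at 172, 118 and 113 in PyMT/ETP tumours, against 126, 154 and 122 in PyMT control tumours (log2 difference -0.07, and -0.30 by its other probe). Hoxb3 was at 96.4, 111 and 97.5 in PyMT/ETP tumours, against 93.6, 88.3 and 81.3 in PyMT control tumours, none of which was above the limit. Against that limit the bound for this probe was 1.27-fold, higher in PyMT/ETP tumours (limma's adjusted p = 0.9997). The probe entered the test through its PyMT/ETP arrays alone, so the filter fixed that direction. Bounds here set the mean of the brighter group against, array by array, the higher of the limit and the probe's own value. A second tested Hoxb3 probe gave a log2 difference of 0.01, and an untested probe ran the other way. That probe was above the limit in PyMT control replicates 1 and 2 and in no PyMT/ETP tumour, a log2 difference of -0.37. Its bound was 1.196-fold, higher in PyMT control tumours. The probes of Hoxb3 therefore disagreed in sign, and no smallest fold for the gene is drawn from them.

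Of the Hoxc genes, Hoxc6 had a single high tumour. It was at 189, 121 and 118 in PyMT/ETP replicates 1 to 3, against 121, 133 and 134 in PyMT control replicates 1 to 3. Its log2 difference of 0.18 (SE 0.32) came from PyMT/ETP replicate 1, and without that array it was -0.24. Hoxc8, the other gene of the forming mammary rudiment, was at 102, 99.6 and 100.2 in PyMT/ETP tumours, against 95.8, 92.1 and 83.4 in PyMT control tumours. These groups did not overlap, and only 1 control tumour was above the limit (log2 difference 0.44, SE 0.16). Hoxc9 was at 127, 117 and 109 in PyMT/ETP tumours, against 110.3, 112 and 117 in PyMT control tumours, and Hoxc10, a gene of lumbar and hindlimb level, at 118, 111 and 109 against 103, 109 and 113. Both overlapped between groups, with log2 differences of 0.14 and 0.17, and a second probe of Hoxc10 gave -0.01. Hoxc4 was at 97.7, 98.0 and 94.1 in PyMT/ETP tumours, against 90.9, 87.5 and 97.3 in PyMT control tumours (log2 difference 0.20).

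Hoxc13 is the Hox gene that activates hair keratin genes in the hair follicle. It was at 96.1, 93.1 and 101 in PyMT/ETP tumours, against 95.2, 107 and 97.3 in PyMT control tumours, with a log2 difference of -0.14 (SE 0.19). The 7 tested hair shaft and root sheath genes, of 17 listed, were brightest in PyMT control replicates 2 and 3. Their summed corrected intensity was 108, 89.0 and 90.3 in PyMT/ETP replicates 1 to 3, against 115, 2055 and 3059 in PyMT control replicates 1 to 3. Hoxc13 was highest in PyMT control replicate 2, one of the tumours with a hair signal, and at 97.3 in replicate 3, the other. Its sign turned without PyMT control replicate 2, to a log2 difference of 0.02.

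The Hoxd cluster had the fewest tested genes. Hoxd8 was at 116, 110.5 and 108 in PyMT/ETP tumours, against 112, 115 and 105 in PyMT control tumours, a log2 difference of 0.03. Hoxd4 was at 102, 101 and 94.9 in PyMT/ETP tumours, against 89.1, 93.4 and 90.0 in PyMT control tumours. No control tumour was above the limit, so Hoxd4 entered the test through its PyMT/ETP arrays alone and the filter fixed its direction. Its bound, taken as for Hoxb3, was 1.19-fold (limma's adjusted p = 0.9997). Hoxd9, like Hoxa9 and Hoxc9 a paralogue 9 gene, was at 109, 94.9 and 90.1 in PyMT/ETP tumours, against 91.2, 83.6 and 94.5 in PyMT control tumours (log2 difference 0.33, SE 0.22). The other paralogue 9 gene, Hoxb9, was above the limit on 2 arrays, both PyMT/ETP, and was not tested.

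The 17 Hox genes that were not tested were Hoxa6, Hoxa10, Hoxa11, Hoxb1, Hoxb6, Hoxb8, Hoxb9, Hoxb13, Hoxc5, Hoxc11, Hoxc12, Hoxd1, Hoxd3, Hoxd10, Hoxd11, Hoxd12 and Hoxd13. Their 22 probes lay between 75.4, for Hoxd11 in PyMT/ETP replicate 1, and 108, for Hoxb6 in the same tumour. Hoxb13, a gene of the tail and prostate that is studied in human breast cancer, was at 88.1, 93.2 and 92.5 in PyMT/ETP tumours, against 89.9, 85.8 and 91.9 in PyMT control tumours. It was not detectable on any array.

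Over the 21 tested genes, 17 log2 differences were positive and 4 negative (Hoxa13, Hoxb5, Hoxb7 and Hoxc13), with a median of 0.18, beside 0.0041 over all 12864 genes tested. Selection bears on this: Hoxb3 and Hoxd4 were tested only because all 3 PyMT/ETP arrays exceeded the limit, so they had to differ. Hoxa4, Hoxc4 and Hoxc8 also met the filter on their 3 PyMT/ETP arrays, with 1 control array above the limit. For them the filter favoured a higher PyMT/ETP level without fixing it. Hoxc13 met it on its 3 control arrays, with 2 PyMT/ETP arrays above the limit. With no filter, 37 of the 57 Hox probes were higher in PyMT/ETP, against 50.6% of all probes, with medians of 0.06 and 0.0022. Of the 22 Hox probes above the limit on no array, 11 were higher and 11 lower. The groups did not overlap for 3 Hox genes, all higher in PyMT/ETP, where the share over all genes was 8.17% (4.52% higher and 3.65% lower). These were Hoxb3, Hoxc8 and Hoxd4, and none of the 14 genes above the limit on all arrays was among them. Those 14 had a median of 0.12, with 11 positive, against 0.0042 for all genes so filtered. The 7 genes not above the limit on some array had a median of 0.39. Hoxa4, Hoxb3, Hoxc4, Hoxc8 and Hoxd4 were among these 7, so the same selection bears on that median. By cluster the medians were 0.11 for Hoxa, 0.47 for Hoxb, 0.18 for Hoxc and 0.33 for Hoxd. By position they were 0.30 for anterior, 0.39 for central and 0.12 for posterior genes. With only probes above 97.3 on all 6 arrays the position medians were 0.30 for 2 anterior, 0.18 for 7 central and 0.14 for 3 posterior genes. The central genes then no longer led, though so few genes cannot rank the positions. The 95% interval of a tested Hox gene reached a median of 0.48 log2 units to either side, against 0.40 for all genes.

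**Figure D3:**
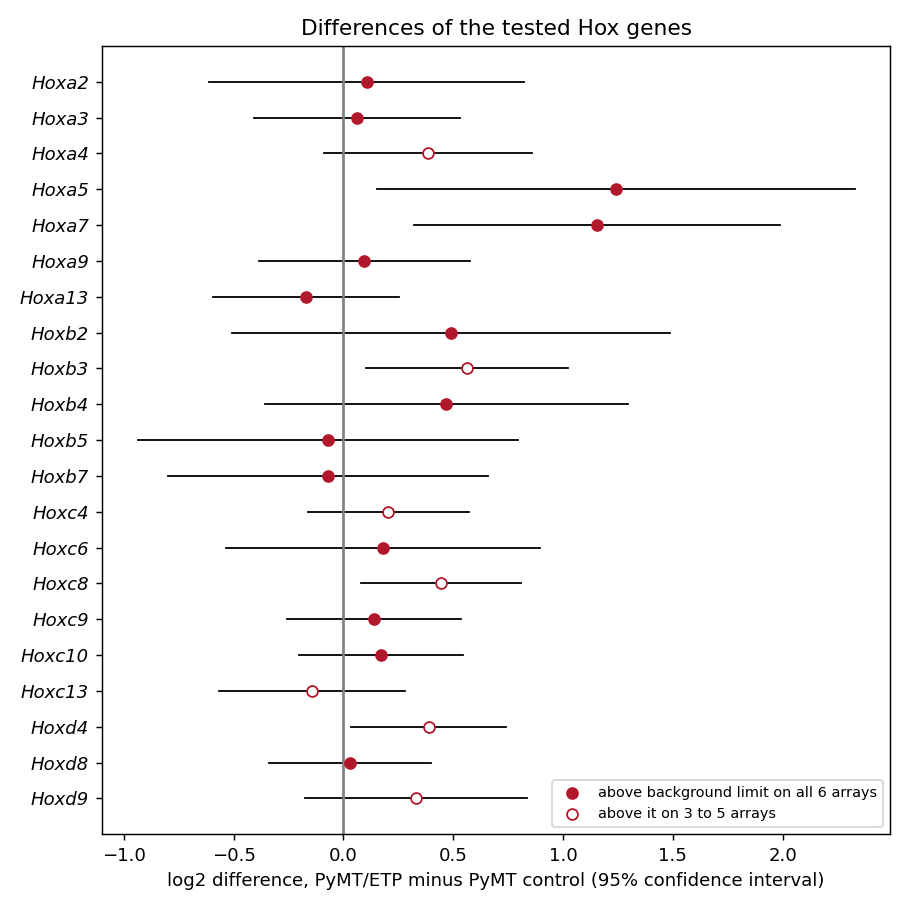
Log2 difference, PyMT/ETP minus PyMT control, of the 21 tested Hox genes with 95% confidence intervals from limma that are not adjusted for multiple testing; filled points were above the background limit on all 6 arrays. Hoxa5 and Hoxa7 stand furthest to the right, and the interval excludes 0 for them and for the dim Hoxb3, Hoxc8 and Hoxd4.

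Hox levels also varied between tumours of the same group. PyMT/ETP replicate 1 was the highest tumour for 10 of the 21 tested genes, replicate 2 for 5 and replicate 3 for 2, against 0, 1 and 3 for PyMT control replicates 1, 2 and 3. The median deviation from the mean of the 6 tumours was 0.26, 0.17 and -0.14 log2 units in PyMT/ETP replicates 1 to 3, and -0.16, -0.09 and -0.04 in PyMT control replicates 1 to 3. Over the 14 genes above the limit on all arrays the median deviation was 0.29, 0.13 and -0.34 in PyMT/ETP replicates 1 to 3, and -0.22, -0.02 and 0.0024 in PyMT control replicates 1 to 3. PyMT/ETP replicate 3 thus lay within the control range over all tested members and below it over those 14. Pooled within groups, the SD was 0.86 log2 units for Hoxa5, 0.64 for Hoxa7, 0.78 for Hoxb2, 0.63 for Hoxb4 and 0.67 for Hoxb5. The SD over all 6 arrays also contains the difference between groups. It was 1.03 log2 units for Hoxa5, 0.85 for Hoxa7, 0.75 for Hoxb2, 0.62 for Hoxb4 and 0.60 for Hoxb5. These exceeded 99.5%, 99.2%, 98.8%, 97.9% and 97.7% of all tested genes. The 6 tested posterior genes ran from 0.18 for Hoxc10 to 0.35 for Hoxd9, exceeding 39.5% and 84.9%, and the lowest of all members was the central gene Hoxd8, with 0.16, exceeding 27.2%. The offset used before taking logs shrinks the spread of dim probes, so these shares compare genes of different brightness.

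**Figure D4:**
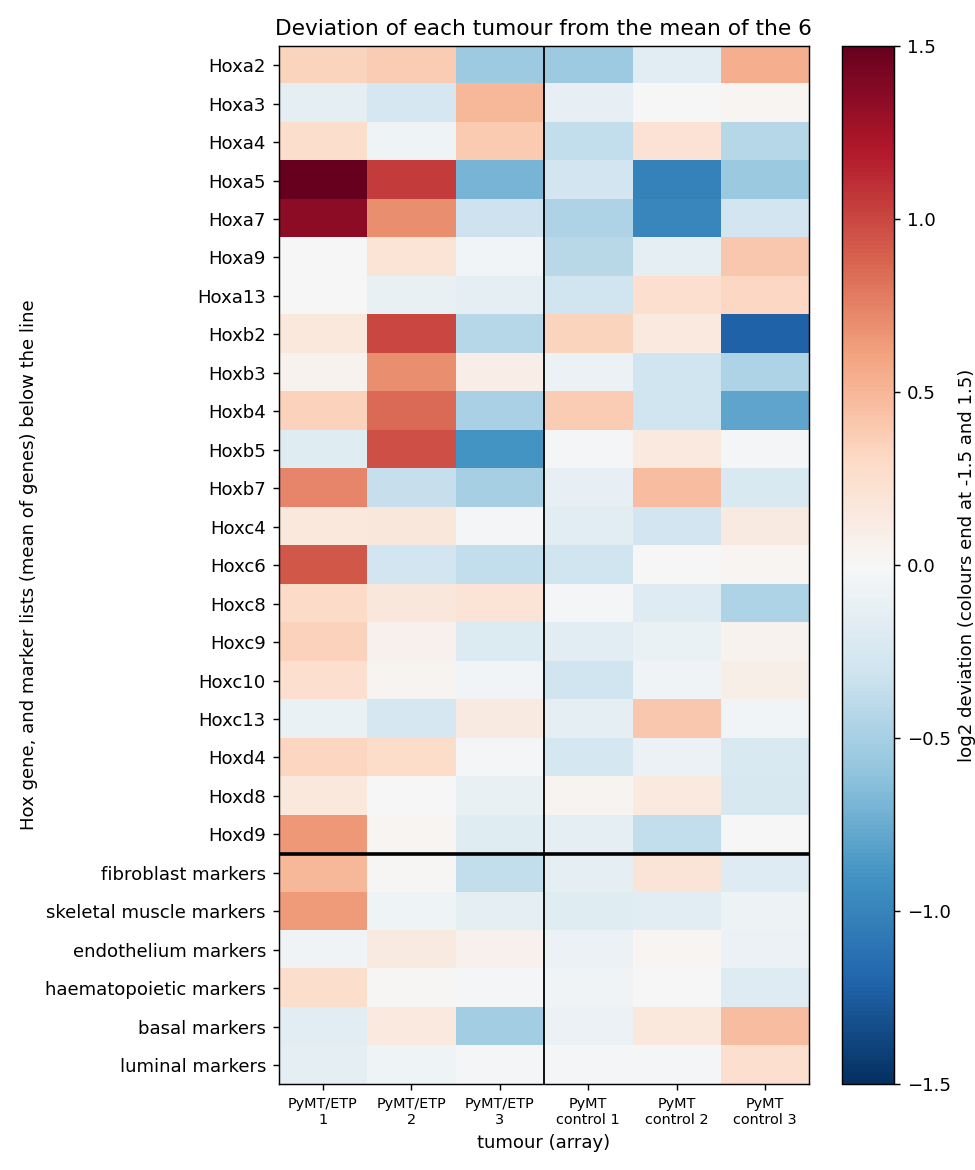
Log2 deviation of each tumour (columns, PyMT/ETP left of the line) from the mean of the 6, for the tested Hox genes in cluster order and, below the line, for the mean of 6 marker lists. Hoxa5 and Hoxa7 are red in PyMT/ETP replicates 1 and 2, Hoxb2 to Hoxb5 are red in PyMT/ETP replicate 2, and the fibroblast and muscle lists are red in PyMT/ETP replicate 1.

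Marker lists moved with PyMT/ETP replicate 1. The 10 fibroblast genes, all tested and above the limit on every array, had a summed corrected intensity of 7758, 4915 and 3752 in PyMT/ETP replicates 1 to 3, against 4522, 5747 and 4697 in PyMT control replicates 1 to 3. The 7 tested skeletal muscle genes of 8 summed to 1238, 523 and 542, against 538, 567 and 562. The 7 tested macrophage and haematopoietic genes of 11 summed to 4758, 3966 and 3468, against 3291, 3351 and 3141. These 3 sums were highest in the tumour where Hoxa5, Hoxa7, Hoxb7 and Hoxc6 were highest. PyMT/ETP replicate 2, second for Hoxa5 and Hoxa7, had a fibroblast sum within the control range. Its muscle sum was below all 3 controls, but Acta1 alone was at 309 there, against 343, 383 and 361 in controls. By the mean log2 deviation of the same 7 genes that tumour was at -0.07, above the controls at -0.18, -0.16 and -0.08. Its endothelial sum (8 tested genes of 9) was the highest at 810, with 668 and 734 in PyMT/ETP replicates 1 and 3. The PyMT control tumours had endothelial sums of 641, 781 and 656. The part of these cell types in the Hox differences was not tested.

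The remaining marker lists were not highest in PyMT/ETP replicate 1. Luminal genes summed to between 60803 and 64877 in PyMT/ETP tumours, against 65636 to 74284 in PyMT control tumours. Basal and myoepithelial genes, 8 tested of 10 (Cnn1 and Oxtr on no array), summed to between 6812 and 11599 in PyMT/ETP tumours, against 10120 to 15810 in PyMT control tumours. Skin keratinocyte genes, 5 tested of 7, summed to between 505 and 546, against 673 to 2727. Adipocyte genes, 3 tested of 7 (Fabp4 on no array), summed to 406, 281 and 121, against 137, 496 and 357.

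Among the Hox cofactors of the TALE class, 8 of 9 were tested, 5 positive and 3 negative, 0 passed, and 0 had an unadjusted p under 0.05 in limma's test. Meis1, the cofactor of several Hox proteins, was at 1345, 1119 and 595 in PyMT/ETP replicates 1 to 3, against 1200, 898 and 572 in PyMT control replicates 1 to 3. As for Hoxb2 and Hoxb4, replicate 3 of each group held the lowest values, a likeness seen after the values were known. The log2 difference was 0.19 (SE 0.37) for Meis1, 0.16 for Pbx2, 0.41 for the dim Pknox2 and -0.11 for Meis2. Of 17 tested Polycomb genes, 9 were positive and 8 negative, with a median of 0.0043 and 0 passing. Suz12 and Phc2, subunits of the 2 Polycomb complexes, had 0.09 and -0.16, Bmi1 had 0.22 and Phf19 -0.36. Of 11 tested MLL and trithorax genes, 5 were positive and 6 negative, with Kmt2a, the histone methyltransferase that sustains Hox expression, at -0.15, Dpy30 at 0.13, Kdm6a at 0.16 and Men1 at -0.18. None passed, and the unadjusted p was above 0.05 for all Polycomb and MLL genes.

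Retinoic acid and Cdx genes also went both ways, with 8 of 12 tested members positive and 0 passing. The retinoic acid binding proteins Crabp1 and Crabp2 had log2 differences of 0.59 (SE 0.23) and -0.39 (SE 0.17), and the receptor Rxrb had 0.0012. Cdx2 was above the limit on 1 array and Cdx4 on none. Of 10 tested factors of limb, trunk and ectoderm patterning, of 22 listed, 6 were positive, and Irx3 and Irx5 had 0.0063 and 0.02. Lmx1b, a dorsal limb factor, had 0.63 (SE 0.21). Dlx3, which acts in hair and epidermis, had -1.10 (SE 0.43) and was at 112, 134 and 114 in PyMT/ETP tumours, against 117, 232 and 222 in PyMT control tumours, the 2 highest being those with the hair signal.

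Genes flanking the clusters were read beside the members. The 2 nearest protein-coding genes with a tested probe on each side of each cluster, by RefSeq order, made 16, of which 12 were positive and 4 negative, with a median of 0.09. This rule was set after the values were seen. Skap2, beside the Hoxa cluster, was at 1594, 1246 and 1115 in PyMT/ETP tumours, against 1458, 1226 and 952 in PyMT control tumours, a log2 difference of 0.13 (SE 0.21). On the other side of the Hoxa cluster Hibadh had 0.08. Neither had the pattern of Hoxa5 and Hoxa7, in which PyMT/ETP replicates 1 and 2 stood apart from the other 4 tumours. The groups did not overlap for 2 of the 16, Lnpk and Mtx2, where the share over all genes was 8.17%. Both lie beside the Hoxd cluster and were higher in PyMT/ETP. Lnpk, at 94.1, 112 and 97.4 against 92.1, 82.6 and 84.8, entered the test through its PyMT/ETP arrays alone. It therefore had to differ and to count among the 12 positive genes. Mtx2 was above the limit on all 6 arrays, with a log2 difference of 0.42 (SE 0.16) that did not pass.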

How the data were processed

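Expression was measured in 6 mammary tumours, 3 PyMT/ETP and 3 PyMT control, grouped by the titles and transgene labels. Per the labels' protocols, RNA was extracted with Trizol, cleaned on columns with DNase treatment, and converted to biotin-labelled cRNA for Illumina arrays. The authors deposited probe intensity values on a linear scale. The software, background treatment and normalization are not stated in the labels or file headers. Sorted values of the 6 arrays differed by at most 0.185, as quantile normalization leaves them, so array totals show no depth, and the number of arrays limits the precision. A second table, with 24 value columns headed by chip and position only, was not used, since no label pairs them with samples. Chip position was therefore not tested as a batch.

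Background was set at 86.1, where the lowest 60% of all values are densest, with an SD of 4.83 from the values under that point. The normexp model of limma removed it, 16 was added and log2 taken, which understates fold changes of dim genes. Probes above 94.0 on 3 or more arrays were tested, 24893 probes of 12864 genes. The tested probe of highest mean stood for its gene. Of all probes, 34885 had 1 symbol, 18 several and 10378 none, and 34807 were matched to the RefSeq gene table. Groups were compared with lmFit and eBayes in R 4.3.3 with limma 3.58.1, two-sided, with Benjamini-Hochberg adjustment over all probes at 0.05. The fit was tested on simulated data.

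The members and all 14 gene lists were chosen with earlier results of these data known. Every tested Hox gene is named. Of each of the 5 lists of regulators and patterning factors, the brightest 2 tested genes and the gene of smallest unadjusted p in each direction are named. The alternatives were no correction, an offset of 50, a stricter filter (above 97.3 on all 6 arrays), no filter, an intensity trend, array weights, the replicate block, cyclic loess, the mean of all probes and leaving out each array. The labels number the replicates 1 to 3 in both groups, but the deviations of same-numbered tumours correlated at -0.04, -0.03 and -0.08, so the numbers were not taken to pair them.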

Additional observations from a re-analysis of the deposited data

How the results depend on the processing

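No Hox probe passed under any of the 15 other settings run, and 0 probes passed in all except the fit without PyMT control replicate 1, where 18 did (0 to 18 with 1 array left out). The replicate block gave 0 calls, as without it. Each replicate number holds an array of each group, so the block cannot change the Hox median of 0.18. It moved limma's unadjusted p both ways, from 0.298 to 0.077 for Hoxb2 and from 0.0995 to 0.149 for Hoxa4. Same-numbered tumours share only a number. With 1 array left out, the Hox median ran from 0.094, without PyMT control replicate 1, to 0.36, without PyMT/ETP replicate 3. It was 0.073 with no background correction, 0.077 with no filter and 0.092 with offset 50. In the fits with 1 array left out, genes with non-overlapping groups numbered 4 to 9 of 21, most without PyMT/ETP replicate 3. Over all 12864 genes such genes then numbered 2080 to 2822, and 1051 with all 6 arrays. Hox genes with non-overlapping groups were 3 with no background correction or offset 50, and 2 with the mean of all tested probes. With the stricter filter they were 0 of 12. The cluster medians ran from 0.015 to 0.32 for Hoxa, 0.0013 to 0.66 for Hoxb, 0.042 to 0.27 for Hoxc and 0.088 to 0.49 for Hoxd with 1 array left out, and the posterior median from -0.012 to 0.23. With no background correction the medians were 0.12 for Hoxd and 0.13 for central genes, and with offset 50 it was 0.15 for Hoxd. The stricter filter gave 0.63 for Hoxa, which then held 4 genes, and 0.028 for Hoxd, which held 1, and no filter gave 0.028 for Hoxd. A filter on the mean of the 6 arrays, added after the data were seen, gave -0.070 for Hoxb, where the Hoxb3 probe with a log2 difference of -0.37, against 0.56, then stood for that gene and turned its sign. Of the 21 named genes, 12 kept their sign whichever array was left out, Hoxa5 (0.80 to 1.90) and Hoxa7 (0.77 to 1.60) among them, and 19 under the other settings of fixed probes. The exceptions there were Hoxb5, at 0.0076 with no background correction and 0.16 with array weights, and Hoxa3, at -0.0070 with array weights. The stricter filter, no filter and the replicate block cannot change the difference of a fixed probe. A sign kept under those settings was fixed in advance. Signal near background limits every member except the few well above it, and 3 tumours a group cannot give an exact permutation p below 0.1.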
